A study of Mus musculus with 8 samples.

Results

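The genes that carry fatty acids into diaphragm muscle and burn them in mitochondria were described in 8-week-old normal and dystrophic mice. A list of 33 such genes was matched to the probe sets of the expression array whose annotation names exactly 1 gene symbol, and 31 genes had at least 1 such probe set, out of 12393 genes named on the array. Acsl1 and Cpt1b had none and were not analysed here. The dystrophic mice were labelled dy/dy, a strain that is homozygous for a spontaneous defect in Lama2, the gene of laminin α2, and the normal mice were labelled as controls for dy/dy. The sources used here give neither the background strain nor the sex. Each of the 4 normal and 4 dystrophic arrays held RNA of diaphragm pooled from 3 mice, 12 mice per group, so the pool is the replicate and the spread between single mice is hidden. The values are MAS5 signals, the linear signal intensity of the Affymetrix algorithm, rescaled to 1 trimmed mean.

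The diaphragm contracts throughout life and is rich in mitochondria, and it takes much of its energy from fatty acids. Lipoprotein lipase frees them in the capillaries, CD36 and transport proteins bring them across the membrane, and a small binding protein carries them through the cytosol. They are activated to acyl-CoA, passed into the mitochondrion on carnitine, and shortened in repeated rounds of dehydrogenation, hydration, a further oxidation and thiolysis, with electrons handed to the electron transfer flavoprotein. Nuclear receptors of the PPAR family and the coactivator PGC-1α raise transcription of many of these genes, and pyruvate dehydrogenase kinase 4 turns muscle from glucose towards fat.

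Lama2, which checks the labels, had signals of 793, 982, 859 and 749 in the normal pools and 333, 239.7, 275 and 232 in the dystrophic pools, a log2 difference of -1.60 (SE 0.15, 95% interval -1.93 to -1.26, limma adjusted p = 8.91e-04). Skeletal muscle markers were bright in all pools, and 9 of 10 lay below 0 in the dystrophic minus normal difference, with a median of -0.20. Their summed signal ran from 158443 to 238491 in normal and from 152776 to 176336 in dystrophic pools, highest in normal replicate 4. Ckm, Mb and Acta1 were the brightest. Of 7 heart muscle markers the brightest were Actc1, which skeletal muscle also expresses, at 1316 to 6359 over the pools, Nppb at 75.9 to 226 and Ryr2 at 61.7 to 154. Nppa ran from 18.9 to 118, and the atrial and ventricular markers Myl7, Myh6 and Tnni3 together from 4.48 to 57.3, where the bacterial negative controls reached 32.2. Of this list 2 genes were bright enough to be tested and neither passed. Regenerating fibre markers all rose (7 of 7), with Myl4, Chrna1 and Myog the brightest, and macrophage markers lay above 0 in 11 of 12, of which 3 rose. A pair of pools stood apart on the first principal component of all tested probe sets: normal replicate 4 at -36.1 and dystrophic replicate 3 at 34.0, with the other pools between -11.5 and 12.5. Replicate 1 of both groups stood apart on the second component, at 33.9 for the normal pool and 25.9 for the dystrophic one, where all others lay between -16.8 and -2.47. The first component held 26.8% and the second 23.5% of the variance. In dystrophic replicate 3 the summed signal of 5 hepatocyte genes was 46829.7, against 1108 to 5698 in the other 7 pools. The 3'-to-5' signal ratio of Gapdh, a measure of RNA integrity, was 0.729 to 0.937 in normal and 0.775 to 0.804 in dystrophic pools. Its highest value was that of normal replicate 4, and the other normal pools reached 0.861. The same ratio of β-actin was also highest in normal replicate 4, at 1.07, against 0.833 to 0.971 in the other pools.

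No fatty acid gene passed the test in the dystrophic diaphragm, and 24 of the 31 tested lay below their normal level. The comparison used limma across 13576 probe sets on log2(signal + 16), with Benjamini-Hochberg adjustment, and 1 probe set standing for each gene. Of 31 genes, 0 rose, 0 fell and 31 did not pass at an adjusted p under 0.05, where 0.645% of all 8215 genes tested passed, 0.596% higher and 0.0487% lower. The smallest adjusted p among them was 0.220. At an unadjusted p under 0.05 there were 3 genes lower, Cpt2, Slc25a20 and Hadhb, and 1 higher, Slc27a1, while 4.19% of all genes were lower, 6.57% higher and 10.8% either at that level. The log2 difference, dystrophic minus normal, was below 0 in 24 of 31 genes, and in 51.5% of all genes. Under quantile normalization, a 75th percentile shift and the deposited scale it was below 0 in 23, 25 and 21 of 31 genes. Its median over the list was -0.14 and its range -0.48 to 0.50, against a median of -0.0076 over all genes. The median was -0.087 under quantile normalization, -0.061 on the deposited scale and -0.22 without dystrophic replicate 4. In bulk muscle, fewer fibres and less RNA per fibre cannot be told apart.

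**Figure D1:**
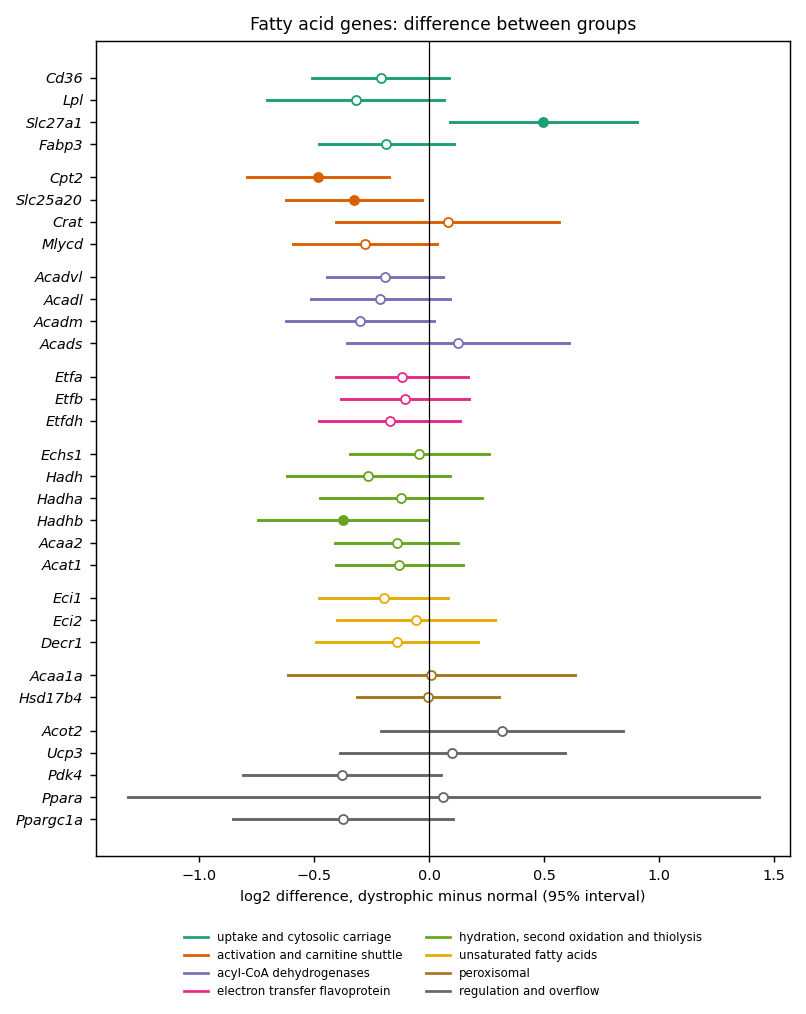
Log2 difference, dystrophic minus normal, of the 31 fatty acid genes with its 95% interval, on the x axis, with the genes grouped and coloured by role on the y axis. Filled circles mark an unadjusted p under 0.05: 3 genes lie to the left of 0 and Slc27a1 lies to the right at 0.50, and the other intervals span 0.

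The arrays fell into 3 groups by the signal of the poly-A spike-in controls, each with equal numbers of normal and dystrophic pools: replicate 1 of both, replicate 3 of both, and replicates 2 and 4 of both. Within these the median difference of the 31 genes was -0.096, -0.33 and -0.17. The mean of the 31 genes on the log2 scale was 11.8 ± 0.0666 over the 4 normal pools (SD) against 11.7 ± 0.0787 over the 4 dystrophic ones. By pool it was 11.75, 11.81, 11.89 and 11.88 in normal and 11.69, 11.66, 11.65 and 11.82 in dystrophic, so that dystrophic replicate 4 lay above normal replicates 1 and 2 and the groups overlapped.

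Among the 4 genes of uptake and cytosolic carriage, 3 lay below 0 and Slc27a1 lay above. Slc27a1 encodes FATP1, a fatty acid transport protein with acyl-CoA synthetase activity. Its signals were 839, 705, 938 and 508 in the normal pools and 1049, 940.1, 944 and 1236 in the dystrophic pools. All dystrophic pools lay above all normal pools, the lowest by a small margin, and normal replicate 4 was the lowest of the 8. The log2 difference was 0.50 (SE 0.19, 95% interval 0.090 to 0.90, limma adjusted p = 0.397). Without normal replicate 4 it was 0.33, and within the spike-in groups it was 0.32, 0.0087 and 0.83 for replicate 1, replicate 3 and replicates 2 and 4. The groups of Slc27a1 and Cpt2 were the 2 of 31 that did not overlap, 1 in each direction. Of all genes 7.17% had groups that did not overlap, 4.7% higher and 2.47% lower.

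Cd36, the membrane receptor that brings long-chain fatty acids into the fibre, had 3 tested probe sets. The one that stands for the gene had signals of 8237, 6722, 7882 and 9545 in the normal pools and 7676, 6498, 6282 and 7399 in the dystrophic pools, with overlapping groups and a log2 difference of -0.21 (SE 0.14, 95% interval -0.51 to 0.086, limma adjusted p = 0.675), which was -0.13 without normal replicate 4. A dimmer probe set had signals of 2507, 2153, 2211 and 2404 in the normal pools and 2076, 1699, 1400.2 and 1847 in the dystrophic pools. Here every dystrophic pool lay below every normal pool, at -0.41 (SE 0.14, 95% interval -0.71 to -0.11, limma adjusted p = 0.318), where 2.53% of all probe sets tested were lower without overlap. The other probe set was at -0.15 (SE 0.15) with overlapping groups. All 3 lay below 0, between -0.41 and -0.15, and none passed.

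Lpl encodes lipoprotein lipase, which muscle fibres, fat cells and macrophages make. Its signals were 18042, 16046, 19564 and 29525 in the normal pools and 18049, 16093, 15283 and 15562 in the dystrophic pools. Normal replicate 4 stood far above the other 7 pools, which overlapped. The log2 difference was -0.32 (SE 0.18, 95% interval -0.70 to 0.067, limma adjusted p = 0.603), and -0.14 without normal replicate 4. Its second probe set was at -0.14 (SE 0.17). Fabp3, the heart and muscle fatty acid binding protein, had signals of 17459, 16764, 21261 and 23006 in the normal pools and 16408, 15920.1, 17810.5 and 18385 in the dystrophic pools. The groups overlapped, with normal replicates 3 and 4 above the rest, at -0.19 (SE 0.13, 95% interval -0.48 to 0.11, limma adjusted p = 0.717), and 0.019 under quantile normalization. Without normal replicate 4 the difference of Fabp3 was -0.10.

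Cells other than fibres also express Cd36 and Lpl. Of 5 tested markers of white fat cells, Lpl among them, 3 lay below 0 and 0 passed. They summed to 25479 to 40138 in normal and 23805 to 27889 in dystrophic pools. Lpl made up most of that sum, at 16046 to 29525 in normal and 15283 to 18049 in dystrophic pools, so the sum is not separate from Lpl. The other tested markers were at -0.12 for Adipoq, -0.046 for Fabp4, 0.047 for Cidec and 0.25 for Retn. Leptin was not tested, with means of 35.0 and 13.6. Of 12 markers of capillary endothelium, Cd36 among them, 7 lay below 0, 3 of them at an unadjusted p under 0.05, where 4.19% of all genes were lower. Their summed signal was 16335 to 19419 in normal and 13727 to 17348 in dystrophic pools, with Ramp2 and Esam the brightest after Cd36. Cd36 itself gave 6722 to 9545 of it in normal and 6282 to 7676 in dystrophic pools, so this sum is not separate from Cd36. The 12 macrophage markers summed to 7516 to 10025 in normal and 12497 to 14877 in dystrophic pools, without overlap, and Mpeg1, Ctss and Cd68 rose. The part of these cells in the values of Cd36 and Lpl was not tested.

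Of the genes of the carnitine shuttle, 3 of 4 lay below 0. Cpt2, carnitine palmitoyltransferase 2, which reforms acyl-CoA on the inner side of the mitochondrial membrane, had the smallest p of the list. Its signals were 3061, 3235, 3163 and 4223 in the normal pools and 2174, 2682, 2226 and 2655 in the dystrophic pools. Every dystrophic pool lay below every normal pool, and normal replicate 4 was the highest. The means were 3420.4 ± 539.7 in normal pools against 2434 ± 271 in dystrophic ones (SD, n = 4), and the log2 difference was -0.48 (SE 0.14, 95% interval -0.79 to -0.18, limma adjusted p = 0.220). It was -0.38 without normal replicate 4, -0.34 without that pool and dystrophic replicate 3, and -0.49, -0.50 and -0.47 for replicate 1, replicate 3 and replicates 2 and 4 taken alone. The other Cpt2 probe set gave a dimmer signal of 191 ± 24.7 in normal pools against 194 ± 17.1 in dystrophic ones (SD, n = 4) and a difference of 0.025 (SE 0.16), on the other side of 0.

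The start region of Cpt2 is printed because this gene had the largest difference below 0. Sequences are RefSeq promoter windows of build GRCm38.p6, 250 bases before to 50 after the gene's start, with 27 windows for 25 of the 31 genes. The Cpt2 window lies at chr4:107923540-107923839 on the minus strand and holds none of the motifs searched.
Cpt2: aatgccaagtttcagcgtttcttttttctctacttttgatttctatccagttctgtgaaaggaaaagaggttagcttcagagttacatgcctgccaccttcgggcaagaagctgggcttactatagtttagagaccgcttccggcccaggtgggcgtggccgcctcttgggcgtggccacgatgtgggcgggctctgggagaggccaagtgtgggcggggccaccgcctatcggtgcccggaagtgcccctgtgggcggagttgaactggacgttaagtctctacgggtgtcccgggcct

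The motifs were searched on both strands. The half-site AGGTCA, which reads TGACCT on the opposite strand, is the unit of PPAR and related receptor sites. It was in 5 of the 27 windows of these genes, those of Cd36, Acadvl, Acadm, Echs1 and Ucp3, and in 16.3% of all 32851 windows. The direct repeat AGGTCANAGGTCA, bound by PPAR with RXR, and the ERR element TCAAGGTCA, which contains the half-site, were in 0 of the 27 windows and in 0.0396% and 0.423% of all. A match is a run of letters and not a measured site, and known elements of such genes can lie outside this window.

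Slc25a20, the carnitine-acylcarnitine carrier of the inner membrane, had signals of 1858, 1819, 1889.8 and 2104 in the normal pools and 1344, 1657, 1333 and 1821 in the dystrophic pools. Dystrophic replicates 1 and 3 were clearly low, while dystrophic replicate 4 lay just above the lowest normal pool, so the groups overlapped. The log2 difference was -0.33 (SE 0.14, 95% interval -0.62 to -0.029, limma adjusted p = 0.465), and its other probe set was at -0.14 (SE 0.13). Crat, carnitine acetyltransferase, gave 2541 ± 749 in normal pools against 2601 ± 389 in dystrophic ones (SD, n = 4) and a difference of 0.081 (SE 0.22) that changed sign without normal replicate 4, to -0.16. Its second probe set lay on the other side of 0, at -0.29 (SE 0.20). Mlycd, malonyl-CoA decarboxylase, which removes the natural inhibitor of carnitine transfer, gave 1704 ± 176 in normal pools against 1411 ± 216 in dystrophic ones (SD, n = 4) and -0.28 (SE 0.14, 95% interval -0.59 to 0.036, limma adjusted p = 0.564), which was -0.17 without dystrophic replicate 3.

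The acyl-CoA dehydrogenases take the first step of each round, each for its own chain length. Acadm, for medium chains, had signals of 10408, 10087, 12577 and 15521 in the normal pools and 9751, 10242, 9313 and 9571 in the dystrophic pools. Normal replicates 3 and 4 stood well above the rest, and normal replicate 1 lay just above the dystrophic pools. Normal replicate 2 lay below dystrophic replicate 2, so the groups overlapped at -0.30 (SE 0.15, 95% interval -0.62 to 0.020, limma adjusted p = 0.543). Without normal replicate 4 its difference was -0.18. Acadl, for long chains, gave 11022 ± 1819 in normal pools against 9463 ± 872 in dystrophic ones (SD, n = 4) and -0.21 (SE 0.14), which was -0.10 without normal replicate 4, -0.037 without that pool and dystrophic replicate 3, and -0.092 under quantile normalization. Acadvl, for very long chains, gave 9739 ± 665 in normal pools against 8538 ± 695 in dystrophic ones (SD, n = 4) and -0.19 (SE 0.11). Acads, for short chains, was the 1 of these 4 above 0, with 1733 ± 439.5 in normal pools against 1887 ± 468 in dystrophic ones (SD, n = 4) and 0.13 (SE 0.22), and changed sign without normal replicate 4, to -0.055.

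Electrons from these enzymes pass to the electron transfer flavoprotein. Etfb, its β subunit, had signals of 9681, 7958, 8714 and 10112 in the normal pools and 9518, 8496, 8419 and 7448 in the dystrophic pools. Dystrophic replicates 1 to 3 lay above the lowest normal pool, so the groups overlapped. Its difference was -0.11 (SE 0.13, 95% interval -0.38 to 0.17, limma adjusted p = 0.852). Etfa, the α subunit, gave 8376 ± 1070.0 in normal pools against 7698 ± 731 in dystrophic ones (SD, n = 4) and -0.12 (SE 0.13), and Etfdh, the membrane enzyme that passes the electrons to ubiquinone, gave 4418 ± 665 in normal pools against 3908 ± 434 in dystrophic ones (SD, n = 4) and -0.17 (SE 0.14). Without normal replicate 4 the differences of Etfa, Etfb and Etfdh were -0.049, -0.053 and -0.078. In all 3 the groups overlapped, and dystrophic replicate 1 was the lowest of the 8 pools in Etfdh while it was the highest dystrophic pool in Etfa and Etfb.

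Hadha and Hadhb encode the α and β subunits of the mitochondrial trifunctional protein, which does the last 3 steps for long chains, and they are transcribed in opposite directions from neighbouring starts. Hadhb had signals of 14385, 12189, 12412 and 19472 in the normal pools and 13637, 10642, 9860.3 and 10502 in the dystrophic pools. Normal replicate 4 was the highest and the groups overlapped through dystrophic replicate 1. The log2 difference was -0.37 (SE 0.17, 95% interval -0.74 to -0.0032, limma adjusted p = 0.510), and the second probe set gave -0.36 (SE 0.17, 95% interval -0.72 to 0.0034, limma adjusted p = 0.519). Hadha had signals of 6591, 7271, 7911 and 5283 in the normal pools and 5378, 6571, 5359 and 7525 in the dystrophic pools. Here normal replicate 4 was the lowest of the 8 pools, and the difference was -0.12 (SE 0.16, 95% interval -0.47 to 0.23, limma adjusted p = 0.866). The same pool was thus at the top for one subunit and at the bottom for the other. Without normal replicate 4 the differences were -0.23 for Hadhb and -0.24 for Hadha. Within the spike-in groups Hadhb was at -0.077, -0.33 and -0.54 and Hadha at -0.29, -0.56 and 0.18 for replicate 1, replicate 3 and replicates 2 and 4.

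The RefSeq window of Hadhb lies at chr5:30155003-30155302 on the plus strand, and that of Hadha at chr5:30154931-30155230 on the minus strand. It is printed because the pair shares it: the 228 bases in capitals belong to both windows.
Hadhb: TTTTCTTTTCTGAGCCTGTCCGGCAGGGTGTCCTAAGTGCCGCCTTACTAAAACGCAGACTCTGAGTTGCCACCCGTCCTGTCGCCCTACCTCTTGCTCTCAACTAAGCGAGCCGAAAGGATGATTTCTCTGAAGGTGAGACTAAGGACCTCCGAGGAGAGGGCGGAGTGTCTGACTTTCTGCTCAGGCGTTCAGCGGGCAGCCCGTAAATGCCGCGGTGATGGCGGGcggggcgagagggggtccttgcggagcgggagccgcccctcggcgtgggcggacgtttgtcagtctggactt

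All 6 genes of hydration, second oxidation and thiolysis, the pair included, lay below 0, Echs1 not on the deposited scale. Hadh, the short-chain hydroxyacyl-CoA dehydrogenase, had signals of 13718, 13194, 16342 and 22255 in the normal pools and 12699, 13625, 13437 and 13610.1 in the dystrophic pools. The dystrophic pools lay in a narrow band around normal replicate 2, and normal replicate 4 stood apart at the top. The difference was -0.26 (SE 0.16, 95% interval -0.62 to 0.089, limma adjusted p = 0.651), and -0.11 without that pool. Its other probe sets were at -0.15 (SE 0.17) and, for a dim one of 35.1 to 332 in normal pools, -0.56 (SE 0.53). Acaa2, the mitochondrial 3-ketoacyl-CoA thiolase, gave 6737 ± 619 in normal pools against 6104 ± 550.5 in dystrophic ones (SD, n = 4) and -0.14 (SE 0.12), with its other probe sets at -0.12 (SE 0.17) and -0.11 (SE 0.14). Acat1, acetoacetyl-CoA thiolase, gave 7229 ± 904 in normal pools against 6579.8 ± 495 in dystrophic ones (SD, n = 4) and -0.13 (SE 0.13), with its other probe sets at -0.079 (SE 0.14) and -0.18 (SE 0.14). Echs1, short-chain enoyl-CoA hydratase, gave 5553 ± 746 in normal pools against 5388 ± 654 in dystrophic ones (SD, n = 4) and -0.042 (SE 0.14), and 0.039 on the values as deposited.

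Unsaturated fatty acids need isomerases and a reductase. Eci1, an enoyl-CoA isomerase, had signals of 4357, 4396, 5541 and 4229.8 in the normal pools and 3746, 3990.4, 3831 and 4528 in the dystrophic pools. Normal replicate 3 stood above the others and the groups overlapped, at -0.20 (SE 0.13, 95% interval -0.48 to 0.083, limma adjusted p = 0.679), which was -0.11 without that pool. Eci2, a second isomerase, gave 1764 ± 371 in normal pools against 1679 ± 192 in dystrophic ones (SD, n = 4) and -0.056 (SE 0.16), and 0.024 on the values as deposited. Decr1, the mitochondrial dienoyl-CoA reductase, gave 3949.7 ± 604 in normal pools against 3596 ± 648 in dystrophic ones (SD, n = 4) and -0.14 (SE 0.16), with its other probe set at -0.30 (SE 0.17).

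The peroxisomal enzymes had mean differences near 0. Hsd17b4, the multifunctional enzyme that hydrates and oxidises acyl-CoA in peroxisomes, had signals of 1324, 1534, 1546 and 1568 in the normal pools and 1158, 1597, 1599.9 and 1643 in the dystrophic pools. Replicate 1 was the lowest pool of each group, and the groups overlapped, with a difference of -0.0046 (SE 0.14, 95% interval -0.31 to 0.30, limma adjusted p = 0.998), and 0.075 on the values as deposited. Its second probe set was at -0.16 (SE 0.21). Acaa1a, the peroxisomal thiolase, had signals of 755, 766, 573 and 905 in the normal pools and 1147, 522, 1103 and 464 in the dystrophic pools. Dystrophic replicates 1 and 3 were the highest of the 8 pools and dystrophic replicates 2 and 4 the lowest, so the mean difference of 0.010 (SE 0.29), which was -0.0042 with arrays scaled to their 75th percentile, covers a split within the group. Summed hepatocyte markers in dystrophic replicates 1 to 4 were 5698, 1619, 46829.7 and 4303, and their part in Acaa1a, which liver expresses, was not tested.

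The genes of regulation and overflow gave differences on both sides of 0. Pdk4, pyruvate dehydrogenase kinase 4, had signals of 8486, 10557, 8065 and 10756 in the normal pools and 6493, 8422, 5083 and 9789 in the dystrophic pools. Dystrophic replicates 1 and 3 were below all normal pools and the other dystrophic pools were among them, at -0.38 (SE 0.20, 95% interval -0.81 to 0.054, limma adjusted p = 0.572). Without dystrophic replicate 3 the difference of Pdk4 was -0.21, and -0.14 without that pool and normal replicate 4. Ppargc1a, which encodes PGC-1α, had 5 tested probe sets, and all 5 lay below 0, from -0.62 to -0.14. The one that stands for the gene had signals of 1010.1, 1271, 823 and 708 in the normal pools and 494, 792, 706 and 939 in the dystrophic pools. The groups overlapped and normal replicate 2 was the highest pool, at -0.37 (SE 0.22, 95% interval -0.85 to 0.11, limma adjusted p = 0.630). Without dystrophic replicate 1 it was -0.20, and without normal replicate 2 it was -0.23. A dimmer probe set, with signals of 707, 1175, 479 and 638 in the normal pools and 364, 444, 376 and 704 in the dystrophic pools, was at -0.62 (SE 0.27, 95% interval -1.22 to -0.034, limma adjusted p = 0.483), and a further one was at -0.60 (SE 0.27, 95% interval -1.19 to -0.0046, limma adjusted p = 0.510). The remaining pair was at -0.29 (SE 0.31) and -0.14 (SE 0.24).

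Ucp3, an uncoupling protein of muscle mitochondria that rises with fatty acid supply, had signals of 549, 896, 455 and 726 in the normal pools and 529.6, 910.3, 610.0 and 738 in the dystrophic pools. Each group spread over a wide range and the groups overlapped, at 0.10 (SE 0.22, 95% interval -0.39 to 0.59, limma adjusted p = 0.932), and its second probe set was at 0.12 (SE 0.33). Ppara, the nuclear receptor PPARα, was dim, with signals of 49.0, 512, 417 and 300.2 in the normal pools and 246, 91.8, 516 and 355 in the dystrophic pools. Normal replicate 1 and dystrophic replicate 2 were far below the other pools, and the interval of the difference, -1.31 to 1.43, allows a large change in either direction. Acot2, a mitochondrial acyl-CoA thioesterase, gave 242 ± 92.2 in normal pools against 293 ± 43.4 in dystrophic ones (SD, n = 4) and 0.32 (SE 0.24, 95% interval -0.21 to 0.84, limma adjusted p = 0.739), which was 0.10 without normal replicate 4.

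The Ucp3 window is printed because it was the only 1 of the 27 with more than 1 match to the half-site. It lies at chr7:100472741-100473040 on the plus strand of GRCm38.p6, and capitals mark the 2 matches.
Ucp3: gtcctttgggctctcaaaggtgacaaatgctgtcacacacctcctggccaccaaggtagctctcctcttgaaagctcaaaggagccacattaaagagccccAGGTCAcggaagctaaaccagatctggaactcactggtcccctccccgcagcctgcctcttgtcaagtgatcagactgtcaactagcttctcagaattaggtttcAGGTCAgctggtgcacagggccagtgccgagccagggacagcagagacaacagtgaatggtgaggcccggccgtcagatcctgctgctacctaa

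**Figure D2:**
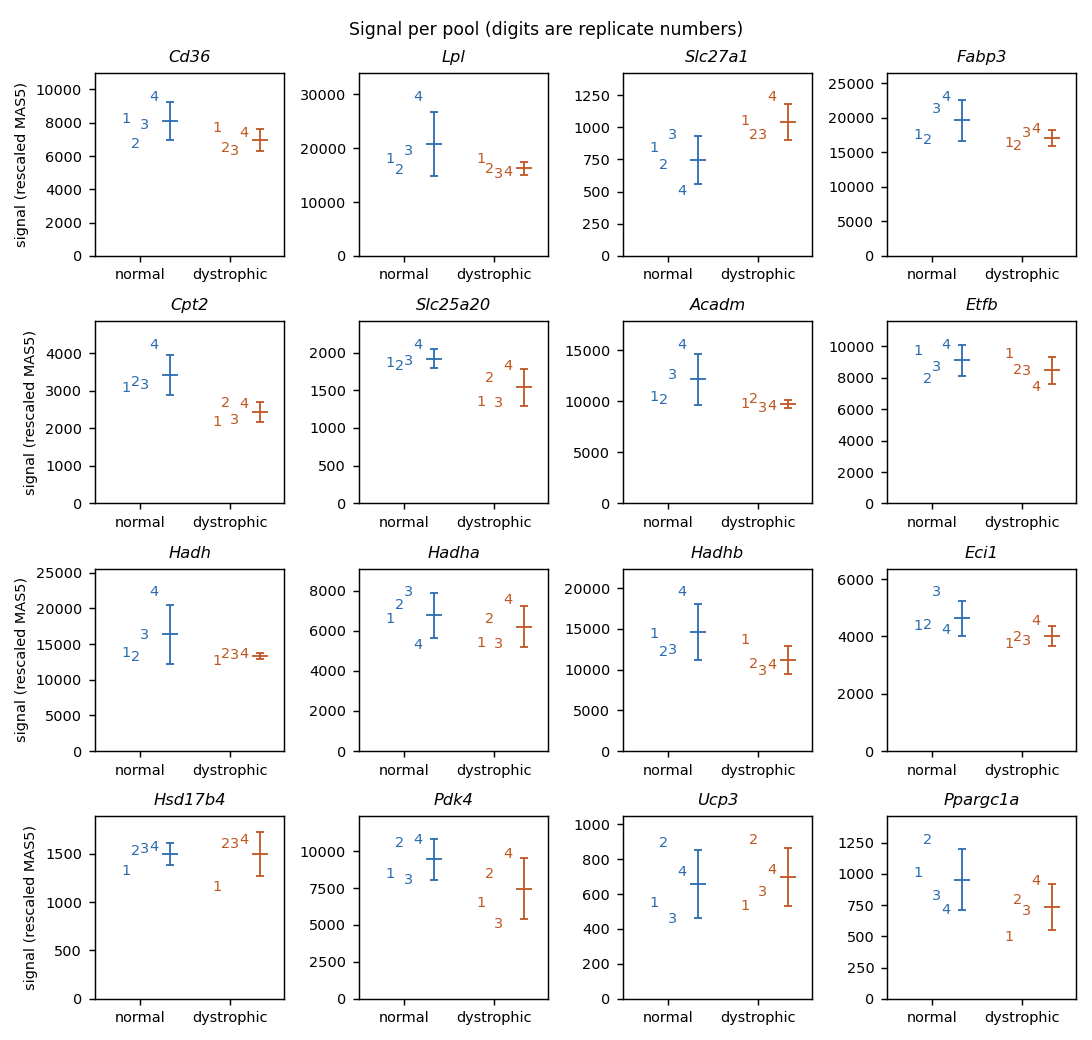
Rescaled MAS5 signal, on a linear y axis from 0, of 16 of the fatty acid genes in each pool, with the replicate number as the symbol, and the mean and SD of 4 pools beside each group. Cpt2 and Slc27a1 show groups that do not overlap, and normal replicate 4 is the highest pool in Lpl, Hadh and Hadhb and the lowest in Hadha and Slc27a1.

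Probe sets of 1 gene served as a check within each array. Of the 31 genes, 13 had more than 1 tested probe set and 2 of these, Cpt2 and Crat, had tested probe sets on opposite sides of 0. Over all 51 tested probe sets of these genes, 42 lay below 0 and 9 above, where 52.3% of all tested probe sets lay below. At an unadjusted p under 0.05 there were 7, of which 6 were lower, and of all tested probe sets 9.72% reached that level, 4.12% lower. A further 2 probe sets, of Acadl and Acaa1a, were too dim to be tested. Probe sets of 1 gene share the same RNA and are not replicates.

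**Figure D3:**
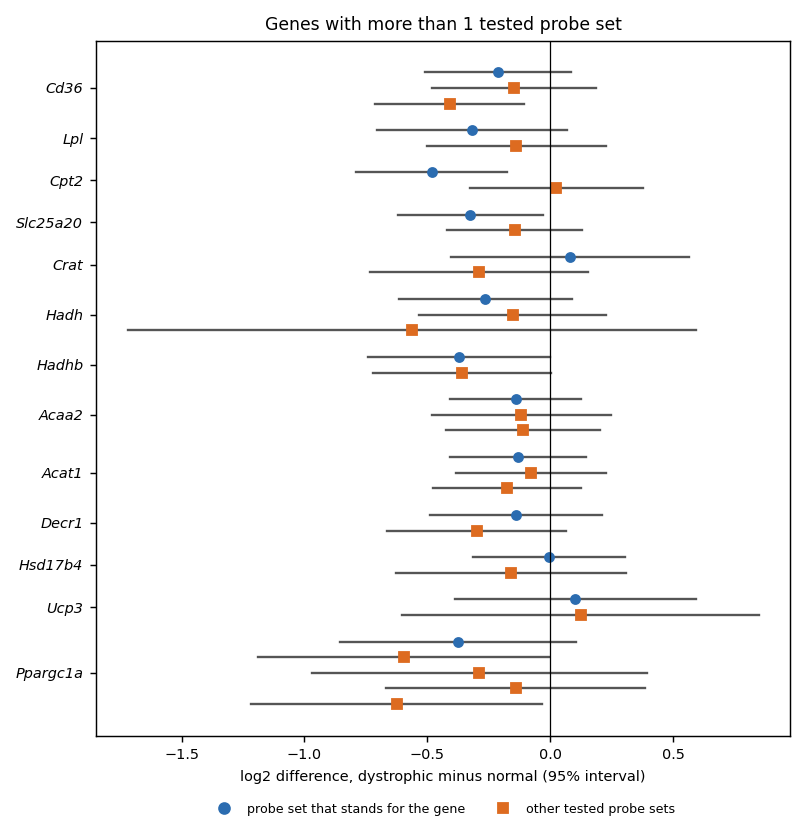
Log2 difference, dystrophic minus normal, with its 95% interval on the x axis for each tested probe set of the 13 fatty acid genes that have more than 1, ordered by signal within the gene. The 5 Ppargc1a probe sets all lie to the left of 0, and those of Cpt2 and Crat lie on both sides.

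The pair of pools that stood apart on the first component was often at the ends of the range in this list. Normal replicate 4 was the highest of the 8 pools in 16 of the 31 genes (51.6%), where it was the highest in 18.1% of all genes tested. The 16 were Cd36, Lpl, Fabp3, Cpt2, Slc25a20, Mlycd, Acadvl, Acadl, Acadm, Etfa, Etfb, Etfdh, Hadh, Hadhb, Eci2 and Pdk4. The same pool was the lowest of the 8 in 5 genes (16.1%), Slc27a1, Crat, Acads, Hadha and Acot2, and in 20% of all genes. Dystrophic replicate 3 was the lowest pool in 11 of 31 genes (35.5%) and in 16.5% of all genes. Replicate 1 of both groups stood apart on the second component. The normal one was the highest pool in 1 gene and the lowest in 1, against 17.3% and 12.0% of all genes. Dystrophic replicate 1 was the highest in 1 gene and the lowest in 8 (25.8%), against 15.3% and 12.0% of all genes. Without normal replicate 4 and dystrophic replicate 3 the median of the list was -0.11, 26 of 31 genes lay below 0, and 1 gene had an unadjusted p under 0.05. The 16 genes highest in normal replicate 4 had a median signal of 8529 (1574 to 17635), against 1824 (256 to 6581) for the 5 lowest there. After rescaling, that array had the lowest median of all its probe sets but the controls, 171.7, against 183 to 207 in the others. The shares over all genes were not matched for signal. The part of array scaling, signal level and muscle content in these ranks was not tested. The skeletal muscle markers also summed highest in normal replicate 4.

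**Figure D4:**
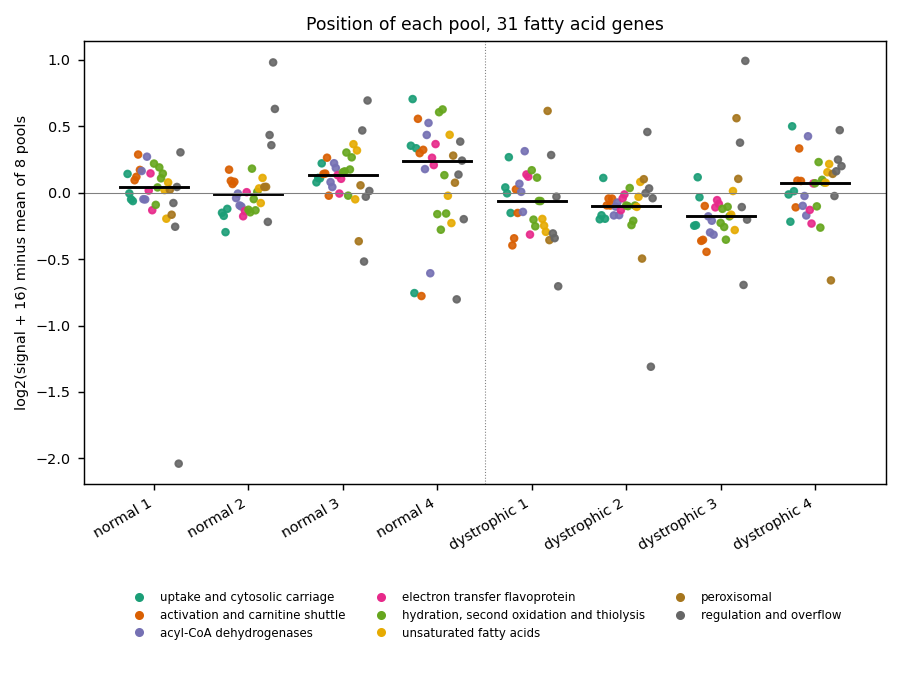
Position of each pool: log2(signal + 16) minus the mean of the 8 pools, on the y axis, for the 31 fatty acid genes, with a point per gene coloured by role and a bar at the median. Normal replicate 4 has the highest median, 0.24, and also a set of genes far below 0, and dystrophic replicate 3 has the lowest median, -0.18.

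Beyond the list, 130 other genes of fatty acid handling were looked up in 8 groups, and 100 were tested. Of these 1 rose, 0 fell and 99 did not pass, and over all genes tested 0.596% rose and 0.0487% fell, so the share that rose was near that of all genes. The median difference was -0.096, and 68 of 100 lay below 0, as did 51.5% of all genes. The gene that rose was Lrp1, an endocytic receptor for lipoprotein remnants and many other ligands. Its signals were 980.3, 1134, 889 and 818 in the normal pools and 1493, 1660.3, 1557 and 1564 in the dystrophic pools. All dystrophic pools lay above all normal pools, at 0.72 (SE 0.13, 95% interval 0.43 to 1.00, limma adjusted p = 0.0361). Leaving out 1 pool kept the call only without normal replicate 2, with an adjusted p up to 0.148 otherwise. Macrophages and fibroblasts also express Lrp1. The macrophage markers, of which 11 of 12 lay above 0, summed to 7516 to 10025 in normal and 12497 to 14877 in dystrophic pools, and their part in Lrp1 was not tested.

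Among lipid droplet and lipolysis genes 9 of 16 lay below 0, with a median of -0.047. Lpin1, a phosphatidate phosphatase and coactivator of fatty acid genes, gave 4786 ± 875 in normal pools against 2930.4 ± 792 in dystrophic ones (SD, n = 4), a difference of -0.72 (SE 0.19), with a limma adjusted p = 0.147. Fasn, fatty acid synthase, gave 1553 ± 377 in normal pools against 925 ± 241 in dystrophic ones (SD, n = 4), a difference of -0.74 (SE 0.21), with a limma adjusted p = 0.192. Neither passed, and in both the groups overlapped. Among 17 transcriptional regulators 12 lay below 0. Rxrg, the RXRγ partner of nuclear receptors in muscle, had signals of 396, 370.2, 273 and 352 in the normal pools and 81.2, 174, 213 and 222 in the dystrophic pools, without overlap. Its difference was -1.02 (SE 0.27), with a limma adjusted p = 0.156, and Rxrb was at -0.63 (SE 0.24), with a limma adjusted p = 0.431. Of 4 genes of ketone and acetate use 3 lay below 0. Oxct1, the enzyme by which muscle uses ketone bodies, gave 10478 ± 1766 in normal pools against 7032 ± 1845 in dystrophic ones (SD, n = 4), a difference of -0.60 (SE 0.19), with a limma adjusted p = 0.284, and Acss2 was at -0.15 (SE 0.12).

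The other mitochondrial acyl-CoA enzymes, which include those of branched-chain amino acids and propionate, lay below 0 in 18 of 23 genes, with a median of -0.17, and 5 were lower at an unadjusted p under 0.05, with 0 higher. Of all genes 51.5% lay below 0, and at that p 4.19% were lower and 6.57% higher. The smallest p values were those of Acad8, isobutyryl-CoA dehydrogenase, at -0.42 (SE 0.14), with a limma adjusted p = 0.301, and Mcee, methylmalonyl-CoA epimerase, at -0.34 (SE 0.11), with a limma adjusted p = 0.311. Mcee had signals of 2152, 1946, 1983 and 2281 in the normal pools and 1693, 1544, 1669 and 1699 in the dystrophic pools, without overlap. Peroxisomal genes lay below 0 in 8 of 13, and those with the smallest p were Phyh at -0.27 (SE 0.12) and catalase, Cat, at -0.30 (SE 0.17). Of 7 genes of malonyl-CoA and the fuel switch 6 lay below 0. Pdha1 had the smallest p, at -0.38 (SE 0.16), with a limma adjusted p = 0.462, and Pdk2 the next, at -0.20 (SE 0.12). Carnitine supply and transfer had 3 of 6 below 0, with Cpt1a at 0.28 (SE 0.18) and Tmlhe at -0.27 (SE 0.20). Uptake genes other than Lrp1 did not pass, and 9 of the 14 in that group lay below 0. Acsl5, an acyl-CoA synthetase, was at 0.24 (SE 0.13).

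Slow and fast fibre markers lay mostly on opposite sides of 0. Of 8 slow-fibre markers 6 lay above 0, with a median of 0.25. They summed to 64569 to 86367 in normal and 82345 to 88707 in dystrophic pools. The 2 below 0, Myl2 at -0.10 and Atp2a2 at -0.24, were the brightest, with Myh7 at 0.25 next. Those above 0 ran from Myl3 at 0.066 to Tnni1 at 0.38. Of 8 fast-fibre markers, brightest in Atp2a1, Tnni2 and Mylpf, 6 lay below 0, with a median of -0.22 and a summed signal of 122957 to 182756 in normal and 117518 to 133163 in dystrophic pools. None of either list passed the test. The 5 tested brown fat markers had a median of -0.083, with 3 below 0 and 2 above. Dio2 was at 0.66 (SE 0.19, limma adjusted p = 0.199) without overlap, where 4.7% of all genes were higher without overlap, and Cidea was at 0.40. Elovl3, Cox7a1 and Cox8b were at -0.083, -0.32 and -0.12. Over the pools Cox7a1 ran from 6483 to 11209 and Cox8b from 12911 to 20348, while Elovl3, Dio2 and Cidea lay between 113 and 409. The part of muscle fibres in Cox7a1 and Cox8b was not tested, so the median is not a level of brown fat. Ucp1, the defining one, was too dim to be tested, at 107 ± 84.8 in normal pools against 14.1 ± 8.33 in dystrophic ones (SD, n = 4). The part of fibre type in the fatty acid genes was not tested.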

How the data were processed

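RNA of diaphragm was measured on 8 Affymetrix arrays. The authors deposited 1 table of MAS5 signal intensity values on a linear scale, per the submitters' processing notes. Neither the MAS5 version nor detection calls were used here. As deposited, normal replicate 4 had a 2% trimmed mean of 400.2 and the other arrays one of 500.2. Because these differed by over 10%, every array was rescaled to their mean, 487.7. Differences are dystrophic minus normal on log2(signal + 16), which understates changes of dim genes. The 64 controls and the lowest 40% of probe sets by mean were left out. Of all probe sets but the controls, 20380 had 1 symbol, 691 several and 1555 none. Symbols were updated through the RefSeq table of GRCm38.p6, where 20351 matched. The brightest probe set stood for a gene. The 13576 probe sets left were fitted by lmFit and eBayes (trend on mean signal) of limma 3.58.1 under R 4.3.3, and p-values were adjusted by Benjamini-Hochberg at 0.05. The members, gene lists and alternatives were chosen with earlier results of these data known, so the list as a whole has no test. Signals of different probe sets are not comparable as levels. Precision is limited by having 4 arrays in a group.

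Per-pool values were given for the brightest gene of each role, genes with an unadjusted p under 0.05, genes whose groups do not overlap, and Pdk4, Ucp3, Cd36, Lpl, Ppara and Ppargc1a. Those of Hadha and Acaa1a, and of Lrp1, Rxrg and Mcee, were added after their values were seen. In lists of other fatty acid genes the called genes and the 2 with the smallest p were named, and in marker lists up to 3 of the brightest. Further markers, among them the called macrophage genes and the dim defining ones, were named after their values were seen. On simulated data for dystrophic against normal, the fit recovered 11 of 50 changes of 1.5-fold, 37 of 50 of 2-fold, 44 of 50 of 4-fold and 41 of 50 of 8-fold among 13576 probe sets, with 3 false calls. The simulated noise was independent between probe sets, without effects shared by a whole pool, and the changes were placed among the brighter probe sets. No fatty acid gene differed by as much as 1.5-fold on the probe set that stood for it, so these rates do not cover the list. Plots used matplotlib 3.10.9 and Python 3.11.15.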

Additional observations from a re-analysis of the deposited data

Results flagged for a closer look

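In each group of 4 pools, a pool was singled out where its gap to the nearest other took up a larger share of the group's range, on the log2 scale, than Dixon's 95% critical value. Of 102 such groups over the 51 tested probe sets of the fatty acid genes, 6 were singled out, and chance gives about 1 in 20. Hsd17b4 was low in replicate 1: its brighter probe set was at 1324, against 1534 to 1568 in the other 3 normal pools, and at 1158, against 1597 to 1643 in the other 3 dystrophic pools. Its second probe set was at 416, against 699.7 to 756 in the other 3 dystrophic pools. Replicate 1 of both groups also shared the highest signal of the poly-A spike-in controls, and the part of that in Hsd17b4 was not tested. Etfa in dystrophic replicate 1 was at 8792, against 7294 to 7402 in the other 3 dystrophic pools. Eci1 in normal replicate 3 was at 5541, against 4229.8 to 4396 in the other 3 normal pools. The dimmer Ucp3 probe set in dystrophic replicate 3 was at 252, against 295 to 302 in the other 3 dystrophic pools.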

How the results depend on the processing

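The count of fatty acid genes past the threshold was 0 under every alternative that gave a test: quantile normalization, an offset of 1 or of 64, a shift to the 75th percentile, the values as deposited, no filter, the lowest 60% left out, no intensity trend, array weights, the spike-in group as a block, averaged probe sets of a gene, each pool left out, both pools that stood apart left out, the replicate block, and replicates 2 and 4 alone. The number at an unadjusted p under 0.05, 4 of 31, ranged from 2 without normal replicate 4 or dystrophic replicate 3 to 8 without normal replicate 2, and was 1 without both of these pools and 2 within replicates 2 and 4. The median, -0.14, stayed below 0. It was -0.061 on the values as deposited, where all probe sets had a median of 0.065, -0.33 within replicate 3, and -0.22 (without dystrophic replicate 4) to -0.11 when 1 pool was left out. With the replicate block the count called was 0, the median -0.14, and 6 genes had an unadjusted p under 0.05. Same-numbered pools had deviations that correlated at 0.48, -0.045, 0.14 and 0.13 for numbers 1 to 4. Pools of different numbers ran from -0.25 to 0.16, so only number 1 lay above that range. The numbers were not taken to pair the pools in the main fit, and what replicate 1 of both groups shared was not tested. The smallest adjusted p of Cpt2 over all alternatives was 0.112, and of Slc27a1 0.272. Some genes, none of them called, changed sign. Under quantile normalization, Fabp3 was at 0.019. With a 75th percentile shift, Acaa1a was at -0.0042. On the values as deposited, Echs1 at 0.039, Eci2 at 0.024 and Hsd17b4 at 0.075 were found. With array weights, Eci2 at 0.036, Acaa1a at -0.12, Hsd17b4 at 0.035 and Ppara at -0.32 were found. Without normal replicate 4 and dystrophic replicate 3 together, Crat at -0.12, Eci2 at 0.066, Acaa1a at -0.080 and Ppara at -0.17 were found. With probe sets averaged, Crat at -0.11 and Acaa1a at -0.061 were found. Within replicates 2 and 4, Echs1 at 0.13, Hadha at 0.18, Acat1 at 0.066, Decr1 at 0.21, Acaa1a at -0.74, Hsd17b4 at 0.062 and Ppara at -1.03 were found. With 1 pool left out, those that crossed 0 ranged as follows: Acaa1a from -0.19 to 0.23, Acads from -0.055 to 0.25, Crat from -0.16 to 0.19, Echs1 from -0.10 to 0.027, Eci2 from -0.13 to 0.080, Hsd17b4 from -0.061 to 0.11, Ppara from -0.61 to 0.51 and Ucp3 from -0.054 to 0.26. Lrp1 was called in 11 of 22 alternatives, at 0.65 to 0.80. The cause of these changes was not tested.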

Other observations

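A few fatty acid genes outside the list were far higher in dystrophic replicate 3 than in the other 7 pools. They were picked by a cut on that pool after their values were seen, so its place at the top follows from the cut. The share of all genes past the cut was not counted. Of the 113 other fatty acid genes with a probe set of 1 symbol, 5 had a signal in dystrophic replicate 3 of more than 3 times the highest of the other 7 pools. Fabp1, the liver fatty acid binding protein, was at 2500.2, against 31.6 to 267 in the other 7 pools. Slc27a2, a transport protein and very long chain acyl-CoA synthetase, was at 1231, against 10.6 to 79.8 in the other 7 pools, and Slc27a5, a bile acid-CoA ligase, at 824, against 89.8 to 136 in the other 7 pools. Acaa1b, a peroxisomal thiolase, was at 715, against 59.7 to 133 in the other 7 pools, and Bbox1, the last enzyme of carnitine synthesis, at 284, against 15.7 to 33.8 in the other 7 pools. The 5 hepatocyte markers summed to 46829.7 in the same pool.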
